A study of Mus musculus with 7 samples.

Results

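Transthyretin, retinol-binding protein 4 and 6 further genes that carry, take up, bind or oxidize retinoids were followed through RNA sequencing of sorted mouse pancreatic alpha cells. The 8 genes are Ttr and Rbp4 (plasma carriers), Stra6 (cell-surface receptor), Crabp1 and Crabp2 (retinoic acid binding proteins) and Aldh1a1, Aldh1a2 and Aldh1a3 (retinal dehydrogenases). They were taken by symbol from a table of 55536 genes, and all 8 were found. The set was proposed with the difference between knockout (KO) and control already known, so the values of that contrast are given for these genes as a description.

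The study asked which genes NKX2.2, a homeodomain transcription factor of islet endocrine cells, regulates in alpha cells in vivo. Control mice were Nkx2.2+/+;Gcg-iCre;Rosa26:tdTomato and KO mice, named Nkx2.2-alphaKO, were Nkx2.2fl/fl;Gcg-iCre;Rosa26:tdTomato, where fl marks an allele that Cre can delete. Both groups thus carried the Cre recombinase expressed from the glucagon gene and the red reporter by which the cells were sorted from islets, on a C57BL/6J background per the design text, which writes Rosa25 for the reporter locus. There were 4 control and 3 KO libraries, and 1 KO library has a column number that no KO sample title carries, so it is called the unnumbered KO library. The age of the mice, the number of mice per library and whether libraries came from separate mice are not given in the sources used here, so p-values measure the spread between these libraries, which may be technical.

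Retinol leaves the liver bound to RBP4, and RBP4 circulates in a complex with transthyretin, a tetramer that also carries thyroxine. Inside cells retinol is oxidized reversibly to retinal by retinol dehydrogenases. The ALDH1A enzymes then oxidize retinal irreversibly to retinoic acid, the ligand of the RAR receptors, which bind DNA as partners of RXR receptors. CYP26 enzymes break retinoic acid down. Transthyretin is an abundant product of alpha cells in the islet, and Rbp4 is known in mouse islets as a gene of delta cells, the somatostatin cells.

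Library totals ran from 45483504 to 72456557 counts. Gcg, the glucagon gene and defining alpha cell marker, was the most abundant protein-coding gene per exon length in all 7 libraries. Nkx2-2, the targeted gene, had 8596, 11199, 12297 and 9782 normalized counts for controls 1 to 4, against 7758, 7534 and 7694 for KO 1, KO 2 and the unnumbered library, so every KO library lay below every control. DESeq2 called Nkx2-2 lower (log2 fold change -0.45, SE 0.13, adjusted p 0.0244), but not without control 2, control 3 or any 1 of the KO libraries (adjusted p 0.0672 to 0.155). Neither the edgeR quasi-likelihood test (adjusted p 0.152) nor DESeq2 with scaling to library totals (adjusted p 0.0942) called it. Which part of Nkx2-2 is deleted is not given in the sources used here, so counts over the whole gene check the deletion only in part. Control 4 stood apart: it was the deepest library, detected 31024 genes against 23150 to 25873 in the others, and had 0 counts for Gm42418, a collector of ribosomal RNA fragments with at least 800722 counts elsewhere. None of the 8 genes has exon sequence under exons of the opposite strand. Summed marker levels of gamma, epsilon, duct and hepatocyte genes were higher in every KO library than in every control, those of alpha cells were lower, and those of beta, delta, acinar, endothelial, mesenchymal, leukocyte and Schwann cells overlapped. In such bulk libraries, fewer cells of a type and less RNA per cell cannot be told apart.

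Of the 8 genes, 5 had enough counts for DESeq2 to give an adjusted p, and 2 of these 5 passed the threshold of 0.05: Ttr lower and Rbp4 higher in KO. Over all 19719 genes with an adjusted p, 769 or 3.90% passed, 1.96% higher and 1.94% lower. The edgeR quasi-likelihood test called Ttr and not Rbp4, against 1.05% of all 19310 genes it tested (0.404% higher and 0.647% lower). The normalized counts of KO and control libraries did not overlap for 3 of the 8 genes, Ttr, Rbp4 and Aldh1a1, against 11.4% of all genes with an adjusted p (5.76% higher and 5.60% lower). The median log2 fold change of the 5 genes was 0.82, against 0.0071 over all genes. Since the genes were chosen on this contrast, nothing is read from these shares.

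**Figure D1:**
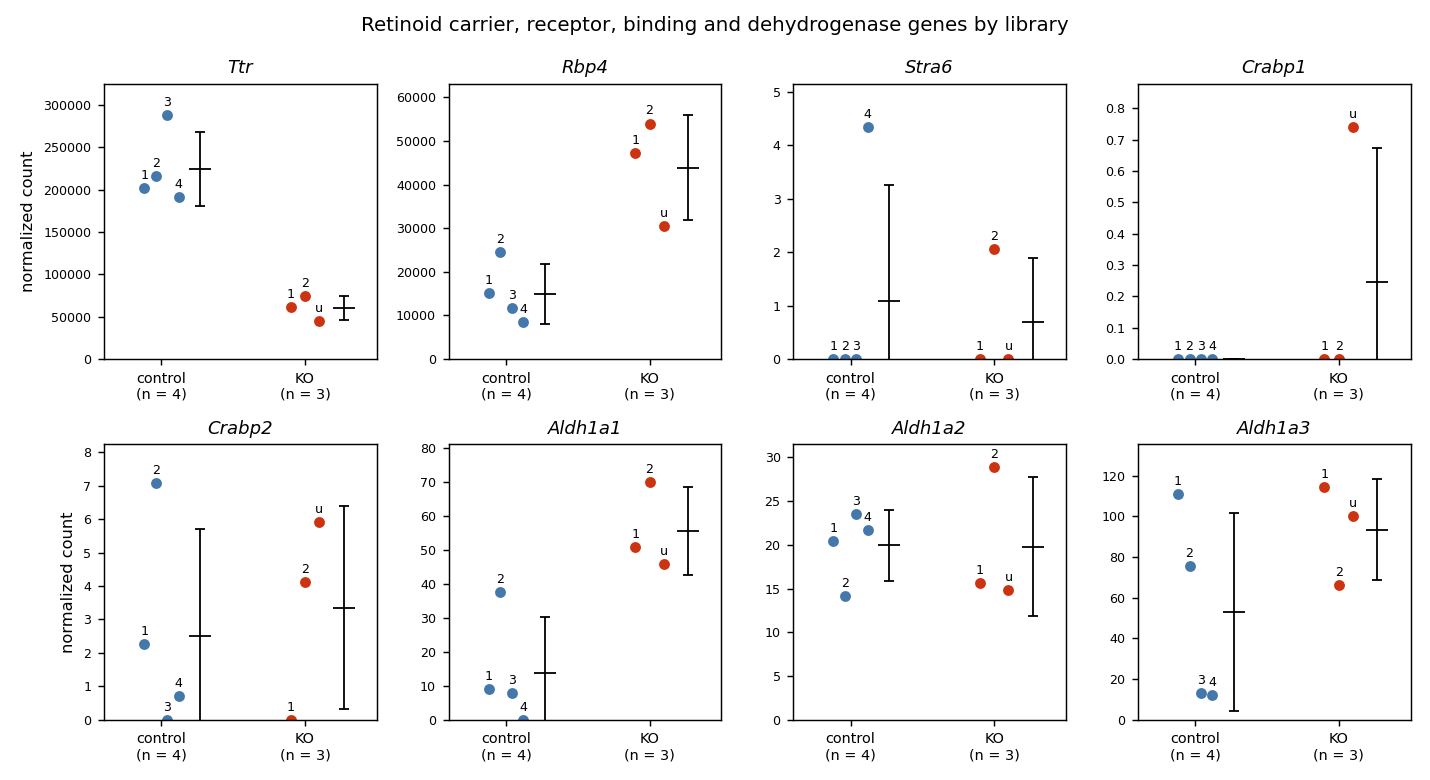
Normalized counts (vertical axis, linear, from 0, a separate scale for each gene) of the 8 retinoid genes in each library, with 4 controls in blue and 3 KO libraries in red. Numbers mark the replicate and u the unnumbered KO library, and the black bars give mean ± SD. Ttr falls from at least 190935 to at most 74174, Rbp4 rises from at most 24494 to at least 30558, and Stra6, Crabp1 and Crabp2 stay under 8 in every library.

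Ttr encodes the carrier itself (ENSMUSG00000061808, chromosome 18, 20665280 to 20674321, plus strand, GRCm38). Ttr had 201624, 216201, 288427 and 190935 normalized counts for controls 1 to 4, against 61365, 74174 and 45127 for KO 1, KO 2 and the unnumbered library. Control 3 was the highest and the unnumbered KO library the lowest, and the groups lay far apart. Controls averaged 224297 ± 43990 (SD, n = 4) and KO libraries 60222 ± 14557 (SD, n = 3), which is 26.9% of the control level. The log2 fold change was -1.90 (SE 0.19), the 254th lowest of 19719 genes.

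Per exon length, on the TPM scale (transcripts per 1000000 transcripts of protein-coding genes), Ttr had 13544 ± 1932 TPM in controls (SD, n = 4) and 3848 ± 647 TPM in KO (SD, n = 3). It ranked 6 or 7 among 22028 protein-coding genes in every control, and 10, 10 and 14 in the KO libraries, so it stayed one of the most abundant transcripts after the fall. The alpha cell list moved in the same direction: 6 of its 12 genes found in the table were called lower, against 1.94% of all genes, and 0 higher, and its summed normalized count was 6312300 to 8198100 in controls and 2942400 to 4227900 in KO. All 12 were detected, and their part in the fall of Ttr was not tested. Within each library, Ttr was also set against Gcg. Gcg itself was lower in every KO library than in every control, at 48.6% of the control level (log2 fold change -1.04, SE 0.15). DESeq2 called Gcg lower (adjusted p 7.58e-10) and edgeR did not (adjusted p 0.175). Per exon length Ttr amounted to 3.42%, 4.17%, 4.51% and 3.90% of Gcg for controls 1 to 4, against 2.32%, 2.28% and 2.00% for KO 1, KO 2 and the unnumbered library. The mean was 4.00% ± 0.46 (SD, n = 4) against 2.201% ± 0.172 (SD, n = 3), so Ttr was lower relative to Gcg as well, at 0.55 of the control ratio, with no overlap.

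Rbp4 encodes the retinol carrier that binds transthyretin (ENSMUSG00000024990, chromosome 19, 38116629 to 38125281, minus strand). Rbp4 had 15060, 24494, 11752 and 8547 normalized counts for controls 1 to 4, against 47167, 54008 and 30558 for KO 1, KO 2 and the unnumbered library. The groups did not overlap, with control 2 nearest to the unnumbered KO library. Controls averaged 14963 ± 6888 (SD, n = 4) and KO libraries 43911 ± 12059 (SD, n = 3), a 2.94-fold difference. The log2 fold change was 1.55 (SE 0.44), the 315th highest of 19719 genes. The call depended on single libraries: DESeq2 no longer called Rbp4 when control 1, control 3, KO 1 or KO 2 was left out, with log2 fold changes of 1.55, 1.45, 1.497 and 1.38, and without control 2 the value was 1.90.

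Per exon length Rbp4 had 790 ± 330 TPM in controls (SD, n = 4) and 2473 ± 508 TPM in KO (SD, n = 3). Its rank among protein-coding genes was 66, 44, 87 and 89 for controls 1 to 4, against 18, 15 and 27 for the KO libraries. It is thus a highly ranked transcript of these sorted cells in both groups, although mouse islet Rbp4 is known from delta cells. Delta cell markers were present: the summed normalized count of 8 delta genes was 192840 to 381850 in controls and 309680 to 594070 in KO, overlapping. Sst, the somatostatin gene, made up most of this sum, and it ranked 2 to 4 among protein-coding genes per exon length in every library. All 7 delta genes with an adjusted p had a log2 fold change above 0, with a median of 0.59, against 0.0071 over all genes. Of these 7, Ffar4 and Spock3 were called higher (2 of 7, against 1.96% of all genes). Sst overlapped between the groups, and the delta gene Lepr was near 0. Rbp4 amounted per exon length to 2.46%, 3.53%, 2.94% and 2.46% of Sst for controls 1 to 4, against 4.35%, 9.67% and 4.02% for KO 1, KO 2 and the unnumbered library. The ratio was higher in every KO library than in every control, and KO 2 stood above the other 2 KO libraries.

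Hepatocytes are the main source of plasma RBP4 and transthyretin. Of 8 hepatocyte genes, 6 had an adjusted p and 1, Alb, was called higher, against 1.96% of all genes. The summed normalized count of the 8 was 309 to 5309 in controls and 6176 to 15621 in KO. Most of the sum came from the protease inhibitor genes Serpina1a and Serpina1b and the fibrinogen gene Fgb. Every KO library lay above every control for Serpina1a (at most 1418 against at least 1674 normalized counts), Serpina1b (3034 against 3535) and Fgb (605 against 737), and none of the 3 was called. The same held for 5.76% of all genes with an adjusted p. Also on this list, Ahsg was at or under 3 counts in every library, Cyp3a11 had mean normalized counts of 0.90 in controls and 0 in KO, and Apoa2 was lower in every KO library. Control 2 held the highest hepatocyte sum and the highest Rbp4 level among controls. The part of the delta and hepatocyte lists in the Rbp4 difference was not tested.

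The carriers were also set against each other within each library. Rbp4 amounted per exon length to 6.60%, 10.005%, 3.60% and 3.95% of Ttr for controls 1 to 4, against 67.9%, 64.3% and 59.8% for KO 1, KO 2 and the unnumbered library. The ratio averaged 6.04% ± 2.96 over the controls (SD, n = 4) and 64.0% ± 4.05 over the KO libraries (SD, n = 3), a 10.6-fold difference that restates the rise of one gene and the fall of the other. The control libraries differed among themselves by more, relative to their mean, than the KO libraries did.

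**Figure D2:**
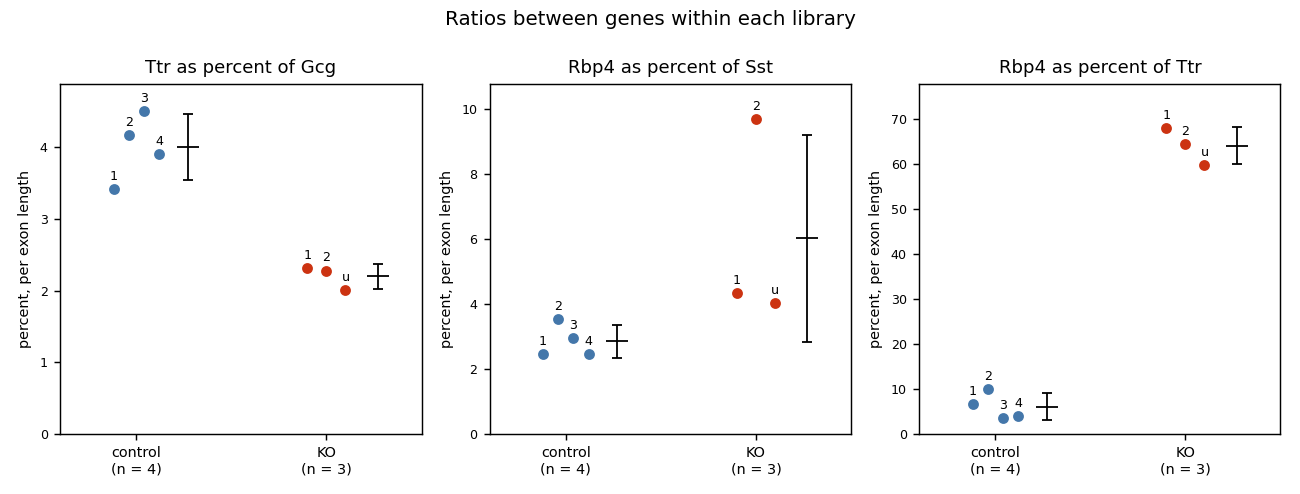
Level of Ttr as a percentage of Gcg (left), of Rbp4 as a percentage of Sst (middle) and of Rbp4 as a percentage of Ttr (right), each per exon length within a library, on linear axes from 0. Points are libraries (4 controls in blue, 3 KO in red, u the unnumbered one) and bars are mean ± SD. The Rbp4 to Ttr ratio is at most 10.005% in controls and at least 59.8% in KO.

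The remaining 6 genes were low. Stra6, the receptor that takes retinol from RBP4, had 0, 0, 0 and 6 counts for controls 1 to 4, against 0, 2 and 0 for KO 1, KO 2 and the unnumbered library. A count of 0 allows up to 3 counts in that library, a limit of 0.0414 to 0.066 counts per 1000000 over the 7 libraries that covers counting error only. Most small counts were even, as when both mates of a pair are counted, so this limit is too low. Stra6 transcripts were not detected at this depth in 5 of the 7 libraries. Crabp1, whose protein holds retinoic acid in the cytoplasm, had 0 counts in 6 libraries and 1 in the unnumbered KO library, so no fold was computed. Crabp2, whose protein delivers retinoic acid to nuclear receptors, had 2, 6, 0 and 1 counts in controls and 0, 4 and 8 in KO, and the groups overlapped. DESeq2 gave no adjusted p for any of these 3 genes.

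The retinal dehydrogenases were detected at a low level in most libraries, each below 2 TPM on average in either group. Aldh1a1 (ENSMUSG00000053279, chromosome 19, 20492715 to 20643465, plus strand) had 8, 32, 6 and 0 counts for controls 1 to 4, against 52, 68 and 62 for KO 1, KO 2 and the unnumbered library. Every KO library lay above every control, also in normalized counts, which were 9.08, 37.7, 7.84 and 0 against 50.8, 70.2 and 45.9. The log2 fold change was 2.04 (SE 1.04), the 146th highest of 19719 genes, and the gene was not called. Without control 2, the highest control, the log2 fold change was 3.36 and DESeq2 called the gene. Control 2 was also the highest control for Rbp4 and the hepatocyte list. Aldh1a7, a near-identical copy next to Aldh1a1, had 0 counts in all controls and 2, 0 and 8 in the KO libraries, and reads shared by the copies make both values uncertain.

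Aldh1a2 (ENSMUSG00000013584, chromosome 9, 71215789 to 71296243, plus strand) had 18, 12, 18 and 30 counts in controls and 16, 28 and 20 in KO, with a log2 fold change of -0.02 (SE 0.66) and overlapping groups. Aldh1a3 (ENSMUSG00000015134, chromosome 7, 66390890 to 66427517, minus strand) had 98, 64, 10 and 17 counts for controls 1 to 4, against 117, 64 and 135 for KO. Controls 1 and 2 resembled the KO libraries, while controls 3 and 4 were lower. In normalized counts the controls were 111, 75.5, 13.1 and 12.3 and the KO libraries 114, 66.1 and 100, with a log2 fold change of 0.82 (SE 0.74). Single controls moved this value: it was 1.48 without control 1, 0.498 without control 3 and 0.488 without control 4, and Aldh1a3 was called in none of these fits. The spread among the controls exceeded the difference between the group means, 53.0 ± 48.8 (SD, n = 4) and 93.5 ± 24.8 (SD, n = 3). Summed, the 3 dehydrogenases had 34.0 to 141 normalized counts in controls and 161 to 181 in KO. The sum did not overlap although Aldh1a2 and Aldh1a3 each did, and none of the 3 genes was called with all libraries in the fit.

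A list of 65 further retinoid genes was followed beside these 8, and 41 of them had an adjusted p. DESeq2 called 3 of the 41 (7.32%), against 3.90% of all genes: Rarb and Nrip1 rose and Lpl fell. The edgeR test called Nrip1 and Lpl, against 1.05% of all genes it tested. The median log2 fold change of the 41 genes was 0.10, against 0.0071 over all genes. The list was drawn up with earlier results of these data known and is no independent support for a direction.

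Rarb, the retinoic acid receptor whose own gene is a known target of retinoic acid, had 18.2, 18.9, 39.2 and 22.4 normalized counts for controls 1 to 4, against 78.2, 114 and 148 for KO 1, KO 2 and the unnumbered library. Each KO library was above each control. This gave Rarb a log2 fold change of 2.21 (SE 0.48, with a DESeq2 adjusted p of 2.95e-04 and an edgeR adjusted p of 0.0536). Exons of the opposite-strand genes Gm48162 and Top2b cover 38.4% of the Rarb exon length, so its counts are uncertain. Top2b, with a mean of 9279 normalized counts, had a log2 fold change of 0.02 (SE 0.11, with a DESeq2 adjusted p of 0.9996).

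Other receptors did not pass the test. Rxra, the most abundant at 64.3 ± 8.9 TPM in controls (SD, n = 4) and 50.7 ± 1.1 in KO (SD, n = 3), had a log2 fold change of -0.44 (SE 0.16, with a DESeq2 adjusted p of 0.110). Rxrb, the next, had 30.7 ± 2.7 and 31.98 ± 1.92 TPM and a log2 fold change of -0.03 (SE 0.11). Rara and Rarg, the other RAR receptors, had log2 fold changes of -0.15 (SE 0.12) and -0.28 (SE 0.13), with every KO library below every control.

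The regulatory element through which retinoic acid receptors act is a direct repeat, and the best known example lies in the Rarb promoter. It is shown with the same element before Cyp26a1, because Cyp26a1 is the other textbook case and the groups overlapped for Cyp26a1 and not for Rarb. The sequences are from RefSeq on GRCm38.p6, 5′ to 3′ on the strand of the gene, and capitals mark the motif searched on both strands, GTTCA, any 6 bases, then GTTCA again.
Rarb (chr14:16575506-16575535, minus strand): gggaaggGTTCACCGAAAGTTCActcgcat
Cyp26a1 (chr19:37697769-37697798, plus strand): ttaaagaTGAACTTTGGGTGAACtaatttg
The matches end 36 bases before the Rarb start of that entry, which lies inside the annotated Rarb gene, and 16 bases before the Cyp26a1 start. The 250-base Rarb window overlaps exons of Rarb and Gm48162, and the Cyp26a1 window overlaps an exon of Cyp26a1. The letters were found in the 250 bases upstream of 22 of 32851 promoter entries (0.067%), and in none of the 10 windows available for 5 of the 8 genes. The motif was chosen after the Rarb values were seen. Cyp26a1, the retinoic acid hydroxylase gene, had 2.27, 14.2, 0 and 8.67 normalized counts in controls and 11.7, 4.13 and 16.3 in KO, overlapping, where Rarb did not overlap. At counts this low (log2 fold change 0.77, SE 1.33) the overlap of Cyp26a1 shows little. The other clearance genes, Cyp26b1 and Cyp26c1, had mean normalized counts below 10 in both groups.

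Nrip1, a corepressor of nuclear receptors that retinoic acid is known to induce, had 3490, 4839, 3410 and 3402 normalized counts for controls 1 to 4, against 7450, 9442 and 5625 for the KO libraries. Its log2 fold change was 0.99 (SE 0.19, with a DESeq2 adjusted p of 3.13e-05 and an edgeR adjusted p of 0.0491). Among the 12 known retinoic acid targets with an adjusted p, only Rarb and Nrip1 were called (2 of 12, against 3.90% of all genes). Tshz1 and Pdx1, the targets with the highest level, had 91.2 ± 4.7 and 63.1 ± 16.6 TPM in controls (SD, n = 4) and 109 ± 7.3 and 87.5 ± 19.7 in KO (SD, n = 3), and neither was called. Dhrs3, which reduces retinal back to retinol and is itself a known target, had 22.7, 7.08, 26.1 and 8.67 normalized counts in controls and 52.8, 59.9 and 35.6 in KO. Its groups did not overlap, which held in this direction for 5.76% of all genes with an adjusted p. The Dhrs3 log2 fold change of 1.63 (SE 0.67) had an adjusted p of 0.218 in DESeq2. Meis1, Meis2, Tgm2 and Rarres2, also listed as targets, had log2 fold changes of 0.51, 0.20, 0.18 and 0.01, and none was called.

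Lpl, lipoprotein lipase, which releases retinyl esters carried in chylomicrons for uptake, had 14221, 14996, 20244 and 14031 normalized counts for controls 1 to 4, against 7141, 7763 and 5521 for KO. It had the highest level per length of the ester storage list, at 109 ± 15.5 TPM in controls (SD, n = 4) and 49.4 ± 4.7 in KO (SD, n = 3). This gave Lpl a log2 fold change of -1.22 (SE 0.17, with a DESeq2 adjusted p of 1.25e-10 and an edgeR adjusted p of 0.0157), with no overlap. Dgat1, which can esterify retinol, was next at 11.003 ± 5.12 TPM in controls and 10.6 ± 2.1 in KO, with overlapping groups. Lrat, the main retinol esterifying enzyme and a marker of retinoid-storing stellate cells, had mean normalized counts of 1.67 in controls and 3.25 in KO.

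Between retinol and retinal, Rdh14, a retinal reductase, had the highest level at 39.2 ± 1.9 TPM in controls (SD, n = 4) and 42.7 ± 1.2 in KO (SD, n = 3), and its log2 fold change was 0.03 (SE 0.17). Adh1, the class I alcohol dehydrogenase that oxidizes retinol, had 771, 921, 784 and 580 normalized counts for controls 1 to 4, against 575, 465 and 443 for KO. The lowest control and the highest KO library were almost equal. Its log2 fold change was -0.63 (SE 0.20), and the adjusted p of 0.05001 in DESeq2 just missed the threshold. DESeq2 called Adh1 when control 4 was left out. Of the 11 genes of this step with an adjusted p, 0 were called, against 3.90% of all genes, and so few genes show little.

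Among other carriers and uptake genes, 0 of 7 with an adjusted p were called, against 3.90% of all genes, which again shows little. Bco1, which cleaves beta-carotene to retinal, had 13.0 ± 4.6 TPM in controls (SD, n = 4) and 22.1 ± 4.1 in KO (SD, n = 3), with a log2 fold change of 0.68 (SE 0.32, with a DESeq2 adjusted p of 0.331). Scarb1, the scavenger receptor that takes up carotenoids, had 6.28 ± 1.19 and 7.07 ± 0.28 TPM. Of the other enzymes that can oxidize retinal, Aldh1b1 and Aox1 had 10.4 ± 1.9 and 4.70 ± 0.95 TPM in controls and 13.3 ± 2.1 and 5.87 ± 2.19 in KO. Both exceeded Aldh1a1, Aldh1a2 and Aldh1a3 per length in the group means, and neither was called.

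**Figure D3:**
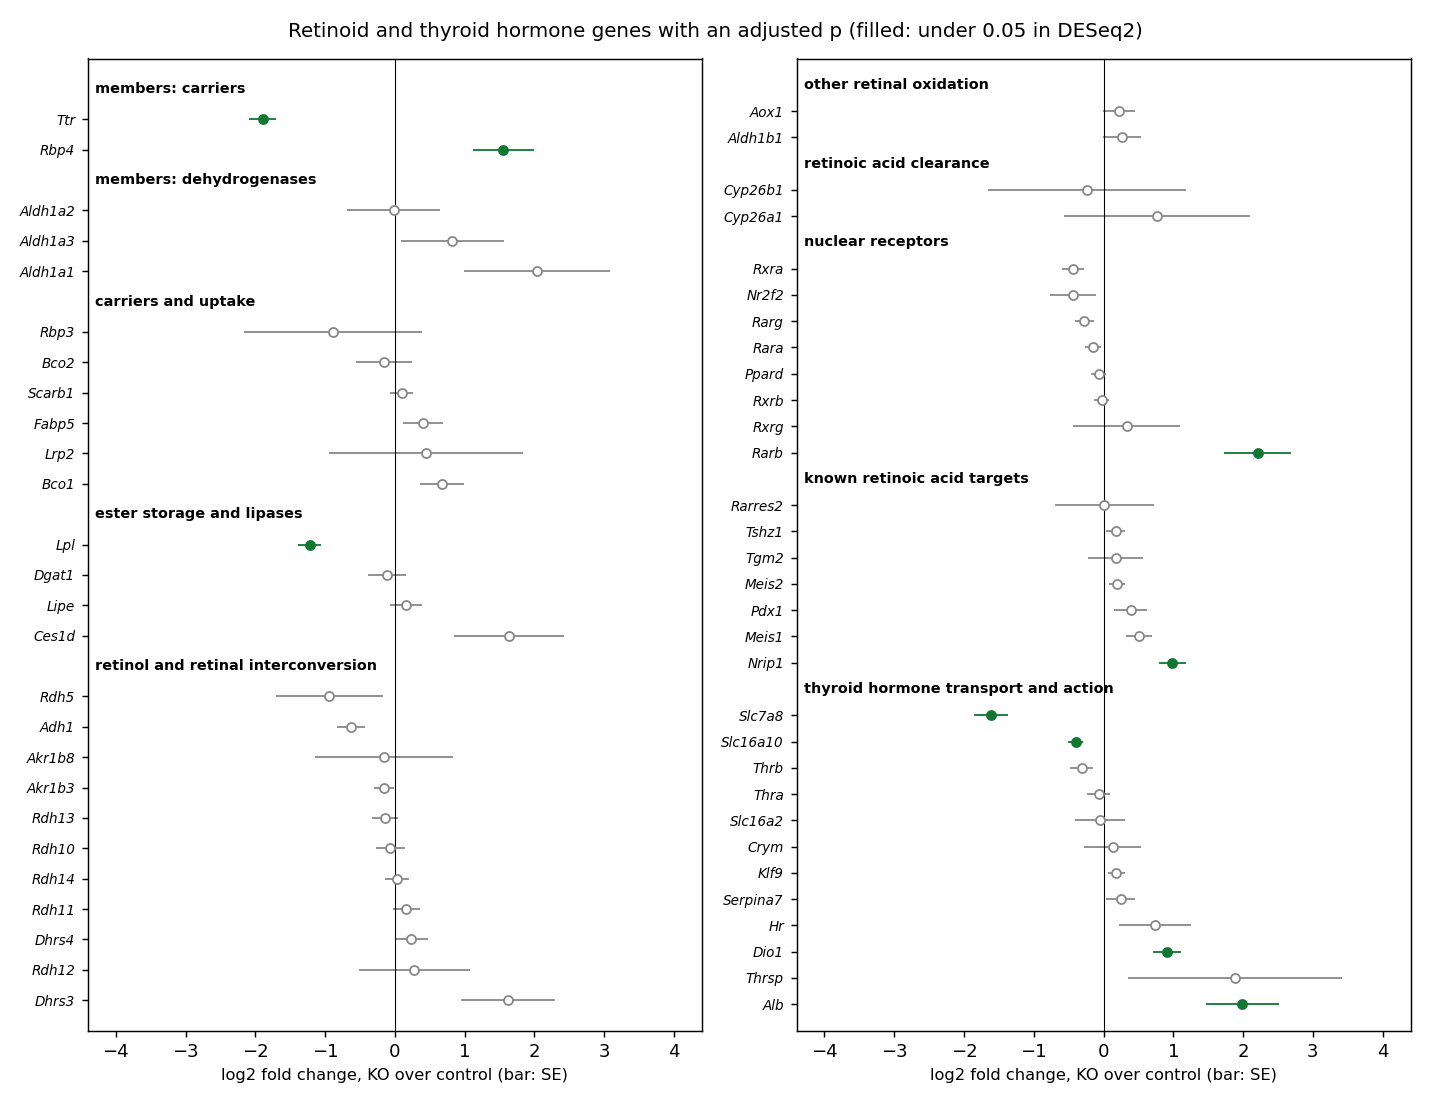
Log2 fold change, KO over control, of 57 genes with an adjusted p: 5 of the 8 retinoid genes, 40 of the 41 further retinoid genes and 12 thyroid hormone genes, grouped by role, with each gene drawn once. Bars are SE of the DESeq2 fit and filled green points have an adjusted p under 0.05. Filled points are Ttr, Lpl, Slc7a8 and Slc16a10 to the left of 0 and Rbp4, Rarb, Nrip1, Dio1 and Alb to the right.

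Because transthyretin also carries thyroxine, 15 genes of thyroid hormone transport and action were followed. Of the 12 with an adjusted p, 4 (33.3%) were called, against 3.90% of all genes: Slc7a8 and Slc16a10 fell and Dio1 and Alb rose. The edgeR test called Slc7a8 alone, against 1.05% of all genes it tested, and 4 genes had an unadjusted p under 0.05 in DESeq2. This list too was drawn up with earlier results of these data known, so nothing is read from these shares. Slc7a8 and Slc16a10, amino acid transporters that also pass thyroid hormones, were the listed genes with the highest level per length.

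Slc7a8 had 17016, 11723, 23168 and 16961 normalized counts for controls 1 to 4, against 5895, 7330 and 3615 for KO. Like Ttr, it was highest in control 3 and lowest in the unnumbered KO library. Its log2 fold change was -1.62 (SE 0.24, with a DESeq2 adjusted p of 1.10e-08 and an edgeR adjusted p of 0.0372). Slc16a10 had 20736, 20712, 21987 and 21011 in controls and 16270, 17841 and 13849 in KO, a smaller log2 fold change of -0.40 (SE 0.11, with a DESeq2 adjusted p of 0.00877 and an edgeR adjusted p of 0.152). The Slc16a10 call was lost without control 3 (DESeq2 adjusted p 0.0789) and without KO 1 (0.0914).

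Dio1, the deiodinase that converts thyroxine to the active hormone, had 1799, 2122, 1345 and 1154 normalized counts in controls and 3066, 3199 and 2785 in KO. This gave Dio1 a log2 fold change of 0.91 (SE 0.20, with a DESeq2 adjusted p of 4.88e-04 and an edgeR adjusted p of 0.0726). Alb, albumin, which binds thyroxine loosely in plasma, had 38.6, 84.9, 36.6 and 26.0 for controls 1 to 4, against 260, 207 and 85.9 for KO 1, KO 2 and the unnumbered library. Control 2 and the unnumbered KO library were almost equal. This gave Alb a log2 fold change of 1.99 (SE 0.52, with a DESeq2 adjusted p of 0.00641 and an edgeR adjusted p of 0.136), and the call was lost without KO 1 (DESeq2 adjusted p 0.235) or KO 2 (0.0893). Alb is also a gene of the hepatocyte list described above. The receptors Thra and Thrb and the thyroxine-binding globulin gene Serpina7 had log2 fold changes of -0.07, -0.31 and 0.24 and were not called.

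On the chromosome, Rbp4 lies between Ffar4 and Pde6c, and both neighbours rose in KO. Ffar4, a fatty acid receptor and delta cell marker, ends 2366 bases from Rbp4 (chromosome 19, 38097071 to 38114263, plus strand). It had 1015, 1151, 1056 and 893 normalized counts for controls 1 to 4, against 1336, 1660 and 1340 for KO, a log2 fold change of 0.49 (SE 0.15, with a DESeq2 adjusted p of 0.0326 and an edgeR adjusted p of 0.132). The Ffar4 call held in DESeq2 without control 2 and was lost when any other single library was left out, with adjusted p from 0.0599 to 0.312, the highest without KO 2. Pde6c, the cone photoreceptor phosphodiesterase, starts 7500 bases from Rbp4 on the opposite strand (chromosome 19, 38132781 to 38183958, plus strand). It had 183, 229, 154 and 270 normalized counts in controls and 440, 540 and 519 in KO. The log2 fold change of Pde6c was 1.25 (SE 0.25, with a DESeq2 adjusted p of 3.63e-05 and an edgeR adjusted p of 0.0399), and its groups did not overlap, and the gene was called in all 17 fits.

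The interval between the Rbp4 and Pde6c starts holds the more distant of the 2 Rbp4 promoter entries in RefSeq, shown here because the genes on either side of it were both higher in KO. The 250 bases before that start contain no annotated exon (GRCm38.p6, chr19:38125322-38125571, minus strand). Capitals mark AAGTG or its complement CACTT, the core letters that NK2 homeodomain proteins such as NKX2.2 are known to bind.
Rbp4: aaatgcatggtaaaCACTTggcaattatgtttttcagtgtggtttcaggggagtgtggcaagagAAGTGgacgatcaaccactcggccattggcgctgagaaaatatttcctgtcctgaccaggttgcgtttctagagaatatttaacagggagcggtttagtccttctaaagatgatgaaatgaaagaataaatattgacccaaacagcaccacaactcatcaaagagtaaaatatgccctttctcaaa
The window held 2 matches, ending 231 and 181 bases before the start. The 250 bases before the nearer Rbp4 start (chr19:38124812-38125061) held 0 matches. The same letters occur in 40.7% of 32851 promoter entries of this length, so a match is common. Among the 8 genes, 5 had an entry on the chromosomes used here, with 10 windows in all, and 3 of the 10 windows, 1 each for Rbp4, Stra6 and Aldh1a1, held a match. A match in letters is not a measured binding site.

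Within 500 kb of the Rbp4 start, 9 other genes had an adjusted p, and only Ffar4 and Pde6c were called (2 of 9, against 3.90% of all genes). Myof and Cep55 on one side and Fra10ac1 and Lgi1 on the other had log2 fold changes of -0.36, -0.17, -0.30 and -0.50 and were not called. Around Ttr, 8 other genes had an adjusted p and 0 were called, against the same 3.90%, so so few genes show little. DESeq2 gave Dsg2, a desmosomal cadherin 60759 bases away, 0.23 as log2 fold change (SE 0.12, adjusted p 0.485), with 2535, 3019, 2717 and 2347 normalized counts in controls and 3066, 3364 and 2940 in KO. B4galt6, a galactosyltransferase gene 10278 bases away, had -0.07 (SE 0.11, adjusted p 0.996), with 7210, 8047, 6972 and 6188 in controls and 6710, 6521 and 7089 in KO. The width of this window was chosen after the neighbours' values were seen. No neighbour of the other 6 genes was called, against 3.90% of all genes, and so few neighbours show little. Of these neighbours, 5 (Cyp11a1, Islr, Anxa1, Aldh1a7 and Aqp9) had too few counts for an adjusted p.

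**Figure D4:**
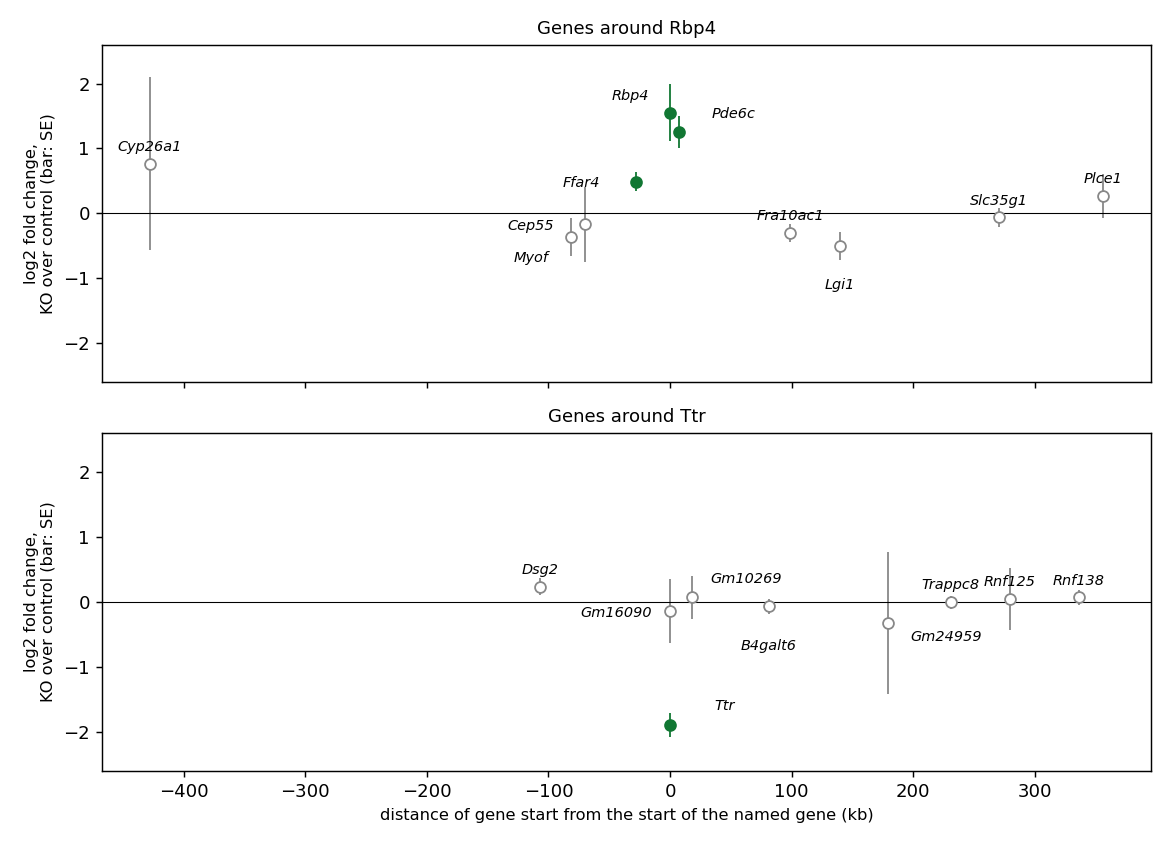
Log2 fold change, KO over control, with SE, of genes with an adjusted p around Rbp4 (top) and Ttr (bottom), against the distance in kb between gene starts, with positive distances to the right on the chromosome. Filled green points have an adjusted p under 0.05 in DESeq2. Rbp4 lies between Ffar4 (0.49) and Pde6c (1.25), both filled, while Ttr is the only filled point in its panel.

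Library by library, the genes whose profile was nearest to Ttr were Frrs1l, Gm2115, Elmod1, Gm19590 and Nid1. Likeness was the root mean square difference of log2(normalized count + 1), centred on each gene's mean, over 7 libraries and among 12765 genes with a mean of at least 100. The differences were 0.16, 0.20, 0.20, 0.21 and 0.24 log2 units. Frrs1l, a factor in the assembly of AMPA glutamate receptors, had 1179 ± 247 normalized counts in controls (SD, n = 4) and 381 ± 104 in KO (SD, n = 3). Elmod1, a regulator of ARF-family GTPases, had 908 ± 171 and 201 ± 76. Nid1, the basement membrane protein nidogen, had 1568 ± 338 and 422 ± 95. All 5 were called lower by DESeq2, which the choice by likeness largely fixes.

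The nearest profiles to Rbp4 were Id4, Ak5, Astn1, Cebpa and Tmcc3, at 0.17, 0.19, 0.21, 0.21 and 0.22 log2 units. These shared with Rbp4 a high control 2, a low control 4 and a KO 2 level above that of the unnumbered KO library. Id4, an inhibitor of helix-loop-helix factors, had 328 ± 165 normalized counts in controls (SD, n = 4) and 863 ± 206 in KO (SD, n = 3). Ak5, an adenylate kinase, had 139 ± 60 and 371 ± 72. Cebpa, a transcription factor known from liver and fat, had 77.6 ± 26.7 and 260 ± 99. All 5 were called higher by DESeq2 and none by edgeR. As for Ttr, the choice by likeness largely fixes both the shared library pattern and the direction.

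**Figure D5:**
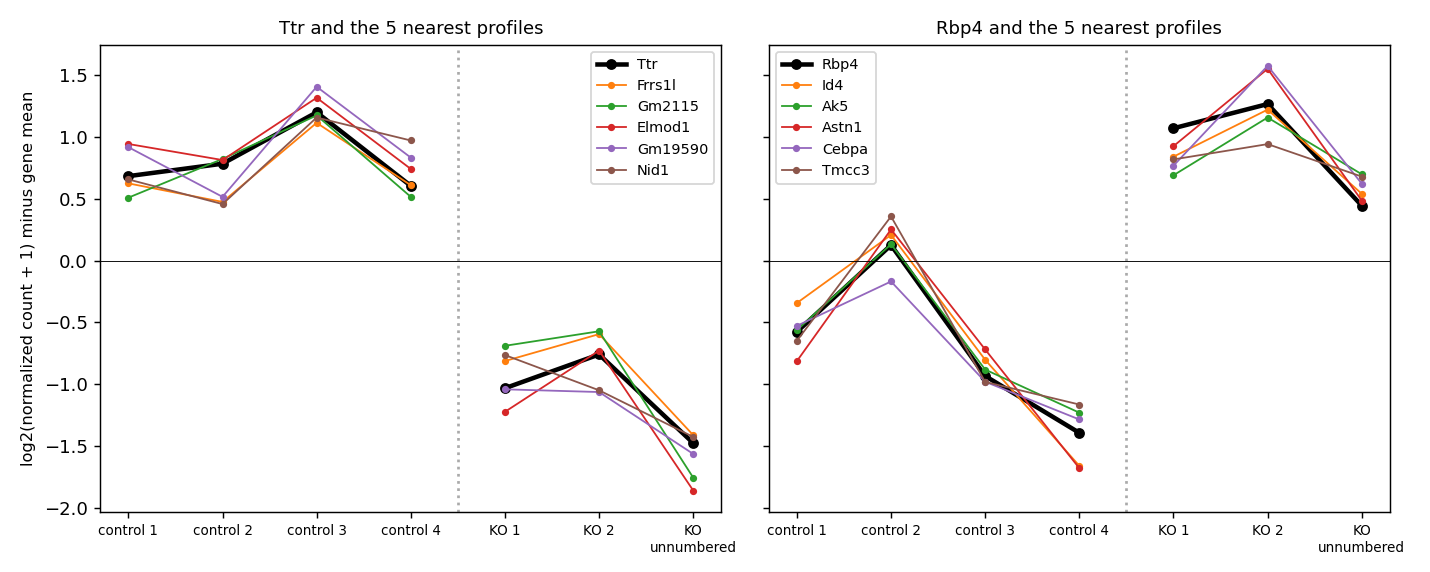
Log2(normalized count + 1) minus the gene mean (vertical axis, log2 units) in each of the 7 libraries for Ttr (left) and Rbp4 (right), in black, with the 5 nearest profiles of each in colour. The dotted line separates controls from KO libraries. Ttr and its nearest profiles peak in control 3, and Rbp4 and its nearest profiles are highest among controls in control 2.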

How the data were processed

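Per the labels' protocols, a strand-specific Takara SMARTer total RNA kit (Pico Input) was used on RNA of tdTomato-sorted cells. The authors deposited whole-number counts per gene and library. FastQC, STAR, featureCounts, DESeq2 and the build mm10 are named in the submitters' processing notes, with no versions, and the strand setting of the counting is not given in the sources used here. Between 84.35% and 88.91% of the counts from 1 to 10 in a library were even, as when both mates of a pair are counted, so intervals from counts are too narrow.

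All 7 columns were used and matched to samples by title, apart from the unnumbered KO column, which was matched to its group. DESeq2 1.42.0 (in R 4.3.3, with default size factors, Wald test and filters and no covariate), the test the design text states, compared 4 control with 3 KO libraries over all genes. P-values were adjusted by the Benjamini-Hochberg method, and the threshold was 0.05. A call is an adjusted p under 0.05, from DESeq2 unless edgeR 4.0.16 (quasi-likelihood, TMM, its default low-count filter) is named. The fit was tested on simulated data. Normalized counts are counts divided by DESeq2 size factors. TPM values were computed from the counts, the union of exons in GENCODE M21 (GRCm38, all 55536 identifiers matched) and the sum over protein-coding genes. Positions are from GENCODE M21 and promoters from RefSeq, GRCm38.p6.

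The 8 genes, the gene lists and the markers (Tmem27 was not found under that symbol) were chosen with earlier results of these data known. Genes were named by rule: the 8 genes, Nkx2-2, called genes and the 2 highest genes per length of each pathway list, nearest coding neighbours, and the 5 nearest profiles of Ttr and Rbp4. Counted in the retinoid lists, 1 further gene is not reported here. The other genes named were chosen after their values were seen.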

Additional observations from a re-analysis of the deposited data

Results flagged for a closer look

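Among 12 genes whose 4 control values were examined with Dixon's test at the 95% level (critical value 0.829), 2 had a control library that stood apart, where chance gives 0.6, about 1 in 20. Lpl had 20244 normalized counts in control 3, and the gap to the next control was 0.845 of the range of the controls. Nrip1 had 4839 normalized counts in control 2, with a gap of 0.939 of the range. In both genes the control that stood apart was still on the same side of all 3 KO libraries as the other controls. Neither Ttr nor Rbp4 had such a control.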

How the results depend on the processing

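Under 16 alternative fits none of 12 called genes refitted each time (Ttr, Rbp4, Rarb, Nrip1, Lpl, Slc7a8, Slc16a10, Dio1, Alb, Nkx2-2, Ffar4 and Pde6c) changed direction. The number of genes called was 769 in DESeq2, 203 in edgeR and 249 in edgeR without control 4, and 430 to 891 when 1 library was left out, the lowest without KO 1. Of the 8 genes, 2 were called, and 1 (Ttr) in edgeR, with or without control 4, and 1 to 3 with 1 library left out. Ttr was called in all 17 fits (log2 fold change -2.08 to -1.63) and Rbp4 in 11 (1.35 to 1.90). Nkx2-2 was called in 7 of the 17 fits. Of the further retinoid genes 3 were called, 7 without the 2 deepest libraries, 1 in edgeR without control 4, and 3 to 6 with 1 library left out, the highest without control 4. Of the thyroid hormone genes 4 were called, 1 in edgeR, 2 in edgeR without control 4, and 2 to 4 with 1 library left out. Scaling to library totals moved the split of calls from 386 higher and 383 lower to 695 and 298.

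Replicate numbers 1 and 2 occur in both groups, with no stated shared origin; the column of the unnumbered KO library carries a 4 absent from the KO titles, and for that reason it was left unpaired. Deviations of same-numbered libraries correlated at 0.29 and 0.283 over 12766 genes, while control 3 and KO 2 reached 0.377 and control 4 and the unnumbered KO library 0.48. With the replicate block on these 4 libraries, 2 of the 8 genes, 3 retinoid genes (Lpl, Nrip1 and Rxra) and 2 thyroid hormone genes (Alb and Dio1) were called, and Aldh1a3 had a log2 fold change of -0.08. Without the block on the same 4 libraries, 5 retinoid genes were called. Rarb and Slc7a8 were called there without the block (DESeq2 adjusted p 0.00847 and 0.00963) and not with it (0.0532 and 0.140). The fits in edgeR without control 4 and without the block were added after the data were seen. With the longest transcript of every gene in place of the exon union, the control level was 10274 TPM for Ttr and 0.48 for Aldh1a2. Their own lengths were the same either way (1186 and 2264 bases), so these shifts came from the lengths of other genes in the sum. Depth limits Stra6, Crabp1 and Crabp2, at 0 to 8 counts a library, while halving all counts left Aldh1a1, Aldh1a2 and Aldh1a3 at log2 fold changes of 2.05, -0.02 and 0.83. The cause of each lost call was not tested.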
